A study of Mus musculus with 56 samples.

Results

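The 9 genes described here encode acute phase proteins: the serum amyloids Saa1, Saa2 and Saa3, lipocalin 2 (Lcn2), the orosomucoids Orm1 and Orm2, hepcidin (Hamp), the protease-inhibitor family member Itih4 and the serpin Serpina3n. They are 9 of the 20018 genes that could be named on the array, chosen by name and not by their values. Each was found through the RefSeq transcript that the array design gives for its probe, and each was read from 1 probe in all tissues. Itih4 has a second probe, and for it the brighter was used.

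The RNA came from adult male MutaMouse animals of about 14 weeks, a transgenic strain used to score mutations. Gavage was daily for 28 days. D0 mice received the olive oil vehicle, while D1, D2 and D3 mice received chrysene (a polycyclic aromatic hydrocarbon) in that oil, with daily doses of 17.5, 50 and 150 mg per kg body weight. Liver, lung and forestomach were taken 72 hours after the last dose, and each of the 56 arrays held 1 tissue of 1 mouse, labelled with Cy5, beside a common reference RNA pooled from mouse cell lines and labelled with Cy3. D0, D1, D2 and D3 had 5, 5, 4 and 5 mice in liver and forestomach and 5, 5, 3 and 5 mice in lung. All animals carried the same transgene and all received olive oil, so that D0 is a gavaged control and not an untreated one. Values are the log2 ratio of Cy5 over Cy3, here called the level: a level of 0 is as bright as the reference, and a difference of 1 between mice is one step of log2. Levels of one gene are set against each other between mice and tissues only as far as the Cy3 signal at its probe stays alike, which it did not for several of these genes. Levels of different genes cannot be compared, since the reference holds each gene in its own amount.

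The acute phase response is the change in plasma proteins that follows infection or tissue injury. Cytokines, chiefly interleukin 6, interleukin 1 and tumour necrosis factor, act on hepatocytes through STAT3, NF-kB and C/EBP transcription factors, and the liver then releases serum amyloid A, orosomucoid and other proteins into blood. Saa1 and Saa2 are the liver's rapidly induced apolipoproteins of high-density lipoprotein, while Saa3 is made mostly outside the liver, by macrophages, adipocytes and epithelia. Lcn2 binds bacterial siderophores and withholds iron from microbes, and Hamp lowers plasma iron by closing the exporter ferroportin. Orm1 and Orm2 are carrier proteins that bind drugs and dampen inflammation, Itih4 belongs to the inter-alpha-trypsin inhibitor heavy chains, and Serpina3n inhibits serine proteases such as granzyme B.

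The promoters of the genes that varied together between mice are shown first, since their values are set side by side further on. Each runs from 250 bases before to 50 bases after the transcription start, as RefSeq gives it on GRCm38.p6: Saa1 at chr7:46742931-46743230 on the minus strand, Saa2 at chr7:46751583-46751882 on the plus strand, Saa3 at chr7:46715627-46715926 on the minus strand and Lcn2 at chr2:32387690-32387989 on the minus strand. Capitals mark matches, on either strand, to the C/EBP letters TTNNGCAA, the NF-kB letters (GGG and CC with any 5 bases between them) or the STAT letters TTCNNNGAA, and no match printed here overlaps another.
Saa1: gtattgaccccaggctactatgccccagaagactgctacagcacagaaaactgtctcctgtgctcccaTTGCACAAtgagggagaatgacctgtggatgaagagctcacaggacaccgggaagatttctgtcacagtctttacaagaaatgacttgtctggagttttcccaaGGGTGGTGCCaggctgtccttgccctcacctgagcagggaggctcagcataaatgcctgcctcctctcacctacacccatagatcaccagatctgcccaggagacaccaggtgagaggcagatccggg
Saa2: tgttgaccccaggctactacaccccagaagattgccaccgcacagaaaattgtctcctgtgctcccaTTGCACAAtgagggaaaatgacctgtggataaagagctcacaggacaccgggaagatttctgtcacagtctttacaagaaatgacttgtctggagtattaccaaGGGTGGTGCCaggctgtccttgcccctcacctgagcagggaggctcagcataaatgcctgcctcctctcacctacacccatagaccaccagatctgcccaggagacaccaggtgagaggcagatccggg
Saa3: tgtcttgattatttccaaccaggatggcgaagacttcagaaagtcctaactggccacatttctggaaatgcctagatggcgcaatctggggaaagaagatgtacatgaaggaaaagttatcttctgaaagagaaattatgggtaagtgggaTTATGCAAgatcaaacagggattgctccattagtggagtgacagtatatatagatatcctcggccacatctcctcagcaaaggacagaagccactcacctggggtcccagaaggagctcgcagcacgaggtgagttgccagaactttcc
Lcn2: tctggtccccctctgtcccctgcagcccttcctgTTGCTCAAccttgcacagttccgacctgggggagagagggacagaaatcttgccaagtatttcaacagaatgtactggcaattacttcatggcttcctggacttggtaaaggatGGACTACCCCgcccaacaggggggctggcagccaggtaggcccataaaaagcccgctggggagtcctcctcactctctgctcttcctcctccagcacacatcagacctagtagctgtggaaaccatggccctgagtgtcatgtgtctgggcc
The Saa1 and Saa2 promoters were nearly alike, with 287 identical bases over 301 aligned columns (95.3%), whereas the other pairs among these 4 lay between 48.9% and 54.2%. A match to the C/EBP letters was present in each of the 4, at -182 to -175 in Saa1, -183 to -176 in Saa2, -99 to -92 in Saa3 and -216 to -209 in Lcn2, counted from the start. It was present in 5 of the 8 members whose promoter the table holds, the other one being Orm2, and in 10.8% of all 32851 promoters of this length. The NF-kB letters, which are loose, matched in 5 of 8 members (Saa1, Saa2, Lcn2, Itih4 and Serpina3n) and in 50.8% of all promoters. The STAT letters matched in 2 of 8 (Hamp and Itih4) and in 8.3% of all promoters. A match is a stretch of letters and was not tested as a binding site.

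Some arrays differed from the rest in ways that touch these genes. The lung arrays of mice 17 and 19, both D3, carried skeletal muscle genes 5.88 and 5.57 log2 units above the D0 mean. Keratinocyte genes stood 3.41 and 3.76 above it there. The other lungs reached at most 0.71 on the muscle list and 0.16 on the keratinocyte list. The summed Cy5 signal of the muscle genes, given further on, was nevertheless far above the D0 range in the highest D2 lung. Leaving out mice 17 and 19 therefore does not remove every lung with a high muscle sum. The 12 forestomach arrays of slides 1 and 2 were dim, with a 95th percentile of the Cy5 signal between 278.5 and 1158, whereas the 7 of slide 3 lay between 2412 and 6586. The glandular stomach genes varied in forestomach from -3.53 to 2.87 around the D0 mean. In liver the 8 hepatocyte markers were all above background and varied by -0.22 to 0.16 around the D0 mean. In lung 4 of these 8 were above background on most arrays, while Apoa1, Ttr and Cps1 were at background on all. Array column and dose step matched on 17 of 19 liver, 16 of 18 lung and 17 of 19 forestomach arrays, so that column and dose cannot be told apart. In whole tissue, fewer cells of a type and less RNA per cell cannot be told apart either.

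Liver carried the highest mean level of 8 of the 9 genes, and lung that of Lcn2. Saa1 averaged 4.35 ± 0.95 (SD) in the 19 livers, -1.29 ± 1.21 in the 18 lungs and -1.03 ± 0.67 in the 19 forestomachs. Saa2 averaged 8.08 ± 0.79 in liver and was well above background on only 2 lung and 2 forestomach arrays. Saa2 was therefore not tested in lung or forestomach, and no fold is given for it. Between liver and lung Saa1 differed by 5.72 ± 0.30 (SE), or 52.6-fold, with limma on all 56 arrays. Orm1 averaged 8.11 ± 0.17 in liver and 0.23 ± 0.30 in lung, and Orm2 7.88 ± 0.17 and 0.49 ± 0.33. Only 6 lung arrays for Orm1 and 8 for Orm2 were well above background, so the measured folds of 234 and 166 between liver and lung are set against a level mostly at the floor of the array. Hamp, well above background on 11 of 18 lungs, was 12-fold higher in liver than in lung. Serpina3n was 6.95-fold and Itih4 3.68-fold higher, both above background in Cy5 on all arrays of both tissues. These folds are of the ratio, and the Cy3 signal at the probes was itself higher in liver than in lung. Its median was 3464.5 and 673.5 for Saa1, 1393.5 and 48 for Hamp, 376.5 and 62.5 for Serpina3n and 1160 and 85 for Itih4. Hamp, Orm1 and Orm2 were not above background in Cy3 on any lung, and Serpina3n was on 10 of 18. The median Cy5 signal, not scaled between arrays, was 25994.5 in liver and 282.5 in lung for Saa1, 12516 and 139 for Hamp, 3201.5 and 387 for Serpina3n and 87873.5 and 6635.5 for Itih4, a wider gap than the ratio gave for each. What moved the Cy3 signal was not tested. The second Itih4 probe, above background in Cy5 on all arrays of both tissues, averaged 5.14 in liver and 2.37 in lung. That gap is wider than between the 7.68 and 5.80 of the probe used.

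Saa2 passed the filter on dim probes only through liver, where it is high, and is left out of the counts that follow. Of the other 8 genes, 6 were called higher and 1, Lcn2, lower in liver than in lung, at an adjusted p of at most 0.05 and a fold of at least 1.5. Among all probes tested, 46.7% were called in this comparison, 21.5% as higher and 25.2% as lower. The remaining gene, Saa3, was 0.89 ± 0.46 higher in liver and was not called (limma adjusted p = 0.0734). The same 8 genes were all called higher in liver than in forestomach, where 41.5% of all probes were called, 19% as higher and 22.5% as lower in liver. The differences ran from 1.05 ± 0.45 for Saa3 (limma adjusted p = 0.0321) to 7.49 ± 0.13 for Orm1. In forestomach Hamp was well above background on 4 of 19 arrays, Orm1 and Serpina3n on 7, and Saa3, Orm2 and Itih4 on 12, so that the values of the first 3 there lay mostly at the floor. Between lung and forestomach 4 of the 8 genes tested were called, all higher in lung, where 36.6% of all probes were called, 18.6% as higher and 17.9% as lower in lung. These 4 were Itih4 at 30.5-fold, Lcn2 at 6.81-fold and, against a forestomach level mostly at the floor, Serpina3n at a measured 3.17-fold and Hamp at 1.54-fold.

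The order of measured levels was liver above lung above forestomach for Itih4, Serpina3n and Hamp, and lung above liver above forestomach for Lcn2. For Saa1, Orm2 and Saa3 the limma intervals for lung minus forestomach were -0.92 to 0.30, -0.59 to 0.03 and -0.77 to 1.10, and none was called. These intervals use a spread common to all tissues, liver included. Within dose groups the SD of Saa3 was 0.285 in liver, 2.24 in lung and 1.17 in forestomach. Lung minus forestomach was -0.38 for Orm1 (limma adjusted p = 0.00654), under the fold limit. The calls that rested on particular arrays were those of Saa3 and Hamp. Without lung mice 17 and 19, Saa3 was called higher in liver than in lung (1.10, limma adjusted p = 0.0131) and Hamp no longer passed the fold limit between lung and forestomach (0.50). With the forestomach arrays of slide 3 alone, Hamp was 0.08 higher in lung, whereas Saa3 was called higher in lung (1.47) and Orm1 and Orm2 lower in lung (-0.75 and -0.76).

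**Figure D1:**
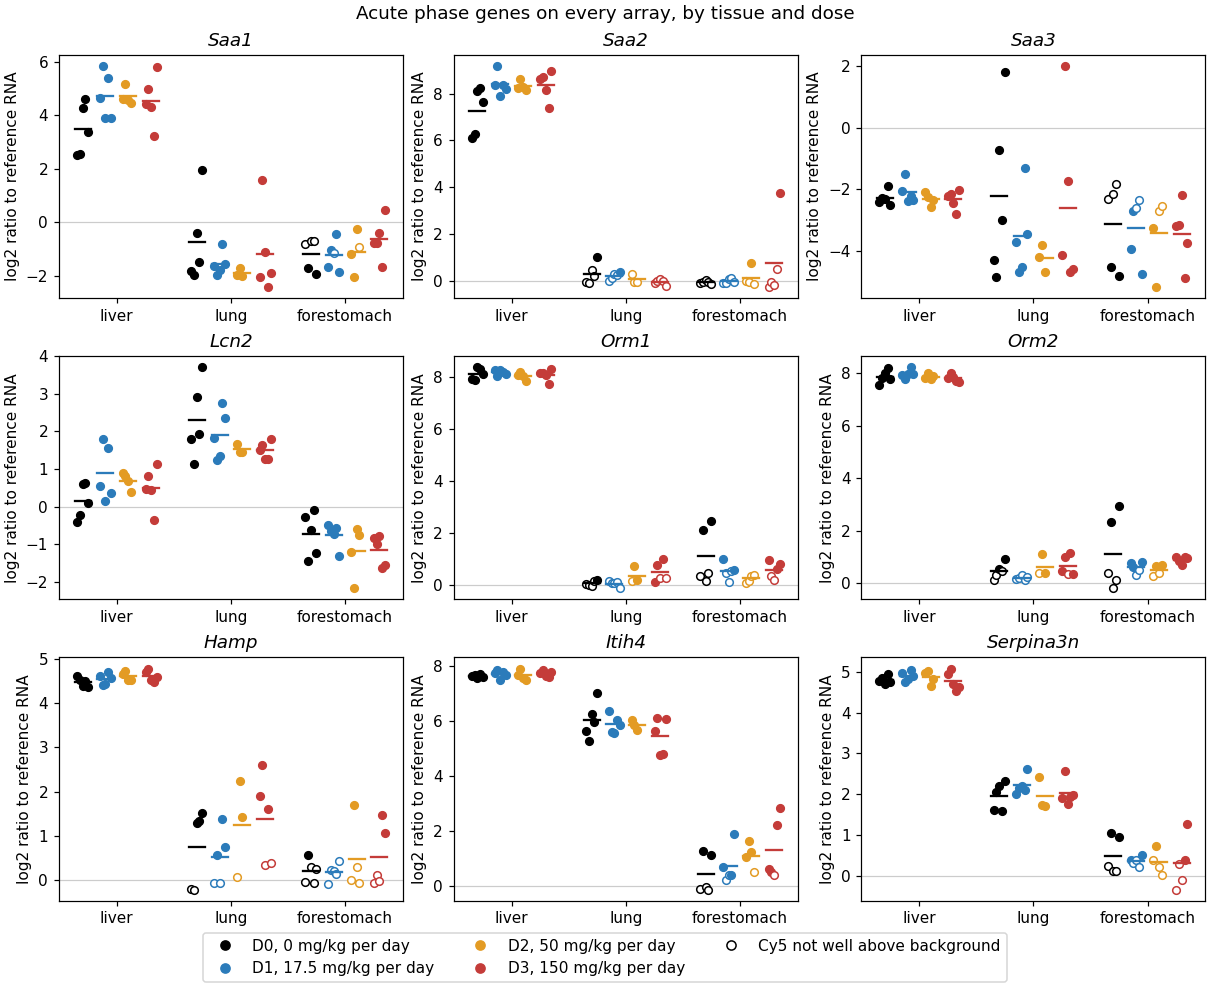
Level of each acute phase gene (log2 ratio of Cy5 to the reference RNA) on all 56 arrays, by tissue and dose. Points are mice, open where the Cy5 signal was not well above background, and bars are dose-group means. Saa1, Saa2, Orm1, Orm2, Hamp, Itih4 and Serpina3n sit highest in liver, and Saa3 in lung spans -4.85 to 2.00.

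Whether 28 days of chrysene dosing moved these genes was asked for each dose against D0 in each tissue. No member was called in any of the 9 comparisons or in the trend over the dose steps. In liver 0 of 9 members were called at D1, D2 and D3 and for the trend, where 0, 0, 0 and 0% of all probes were called. In lung 0 of 8 were called, with 0, 0 and 0.127% of all probes called at D1, D2 and D3 and 0.168% for the trend. In forestomach 0 of 8 were called, with 0, 0 and 0.00727% of all probes called at D1, D2 and D3 and 0.04% for the trend. At an unadjusted p of at most 0.05 by limma, 3, 2 and 2 members stood in liver at D1, D2 and D3 against 3.61, 3.78 and 4.78% of all probes, and 0, 0 and 2 stood in lung against 5.88, 6.12 and 16.1%. In forestomach the counts were 0, 1 and 0 members against 4.17, 7.54 and 9.24% of all probes. For the trend 1 member stood in liver, 2 in lung and 1 in forestomach, against 5.41, 17.3 and 9.18% of all probes. The Fs statistic named in the study's methods also called 0 members in any tissue or dose. In no tissue and at no dose did the values of a member stand clear of the D0 values. The share of all probes that stood clear at D1, D2 and D3 was 0.484, 1.24 and 0.739% in liver, 1.4, 5.29 and 2.61% in lung and 0.719, 2.18 and 1.39% in forestomach.

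**Figure D2:**
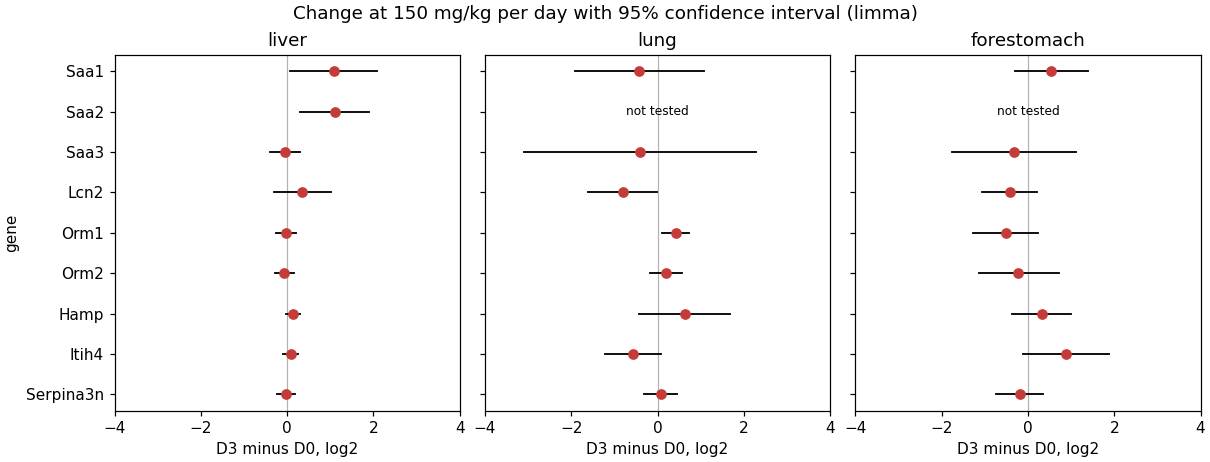
Difference in level between D3 (150 mg per kg per day) and D0 for each gene and tissue, in log2 units, with the 95% confidence interval of the limma fit. Intervals are narrow for the liver genes whose ratio varied little and widest for Saa3 in lung (-3.09 to 2.28). No difference passed the adjusted test.

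Saa1 and Saa2 were the members whose liver levels differed most between D0 and the dosed mice, and the D0 mice themselves were far apart. Saa1 in the D0 livers was 2.51, 2.55, 4.29, 4.63 and 3.38 in mice 1 to 5. It was 4.66, 5.85, 3.92, 5.40 and 3.89 at D1 (mice 6 to 10), 4.61, 5.16, 4.59 and 4.47 at D2 (mice 11, 12, 13 and 15) and 4.41, 4.99, 4.32, 3.22 and 5.82 at D3 (mice 16 to 20). The dosed livers lay mostly above the D0 mean of 3.47, and D0 mouse 4 lay within their range at each dose. The differences from D0 were 1.27 ± 0.48, 1.23 ± 0.51 and 1.08 ± 0.48 in order of dose, with a limma adjusted p of 0.998 to 1 over all probes. As folds these were 2.41, 2.35 and 2.12, the largest at the lowest dose.

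Saa2, whose probe was clearly bright on every liver array, followed the same mice. Its D0 livers were at 6.11, 6.29, 8.12, 8.24 and 7.63, with mice 1 and 2 again the lowest of all 19. The dosed livers lay at 8.37, 9.18, 7.91, 8.37 and 8.21 for D1, 8.22, 8.64, 8.28 and 8.17 for D2 and 8.64, 8.73, 8.14, 7.38 and 8.98 for D3. Apart from mouse 19, every dosed liver was above D0 mice 1, 2 and 5. The differences from D0 were 1.13 ± 0.38, 1.05 ± 0.40 and 1.10 ± 0.38, with a limma adjusted p of 0.969 or more. The interval at D3 ran from 0.30 to 1.89. Saa1 and Saa2 are close copies of one another, as are Orm1 and Orm2, and each was read from 1 probe. Binding of one transcript to the other's probe was not tested.

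Lcn2 in liver was low and high in some of the same mice, at a smaller scale. The D0 livers were at -0.42, -0.23, 0.61, 0.62 and 0.10, and D1 at 0.56, 1.79, 0.15, 1.56 and 0.36. D2 lay at 0.89, 0.82, 0.67 and 0.39 and D3 at 0.47, 0.80, 0.43, -0.37 and 1.12. Mice 1 and 2 were low once more, mice 7 and 9 were the highest, and mouse 19 was the lowest of D3, as for Saa1 and Saa2. The differences from D0 were 0.75 ± 0.31, 0.55 ± 0.33 and 0.35 ± 0.31 in order of dose, with a limma adjusted p of 0.998 to 1.

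The variation between livers of one dose group was therefore large for these genes. The SD between mice within dose groups was 0.849 for Saa1, the 99th largest of 24769 probes tested in liver, 0.67 for Saa2 (rank 202) and 0.547 for Lcn2 (rank 385), against a median of 0.156 over all probes. Of the other liver members, 5 had lower SDs of the ratio, at 0.117 for Hamp, 0.125 for Itih4, 0.161 for Serpina3n, 0.171 for Orm2 and 0.179 for Orm1. Their levels in all 19 livers stayed between 7.74 and 8.38 for Orm1, 4.36 and 4.78 for Hamp and 7.50 and 7.91 for Itih4. At D3 their differences from D0 lay between -0.06 and 0.14, and the limma intervals reached from -0.28 for Orm2 to 0.30 for Hamp in the ratio. In Cy5 alone, the sample's own channel scaled to each array's 75th percentile, the D3 differences had wider errors, at 0.14 ± 0.29 for Hamp and -0.26 ± 0.19 for Serpina3n. Saa3 in liver had an SD of 0.285, above the median probe, and lay between -2.79 and -1.49, with a D3 difference of -0.05 and an interval of -0.40 to 0.30.

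With the dose-group means removed, the deviations of Saa1, Saa2 and Lcn2 moved together over the 19 livers. Saa1 and Lcn2 had Pearson's r = 0.943 and Spearman's rho = 0.911, with a permutation p of 1e-05 and 2e-05, the former the smallest that 100000 permutations of mice within dose groups can give. Each was the other's closest of 24768 probes (adjusted p over all probes = 0.00115). With loess on the scanner signals the adjusted p was 0.0922 and with normexp 0.0771, at r = 0.879 and 0.882. In the deposited ratios r was 0.947 without mice 4 and 20, the farthest on Saa1, and 0.945 within slides. Saa1 and Saa2 had r = 0.901 and rho = 0.925 (permutation p = 1e-05 for both, adjusted p over all probes = 0.024), with r = 0.884 without mice 4 and 20. The adjusted p of this pair passed 0.05 when any 1 of 14 mice was left out, up to 0.213 without mouse 19, while r stayed between 0.878 and 0.928. Saa2 and Lcn2 had r = 0.81 and rho = 0.832 (permutation p = 1e-05 and 4e-05, adjusted p over all probes = 1), with r = 0.796 without mice 1 and 4. The pairs of these genes with Saa3, Orm1 and Itih4 had lower r, from 0.419 (Saa2 with Itih4, rho = 0.565, permutation p = 0.0203 and 0.00606) to 0.751, each with an adjusted p of 1. The highest were Saa1 with Saa3 at r = 0.751 (rho = 0.674, permutation p = 0.00068 and 0.00367), Saa3 with Lcn2 at 0.742 (rho = 0.704, permutation p = 0.00179 and 0.00388) and Saa2 with Orm1 at 0.731 (rho = 0.712, permutation p = 0.00799 and 0.00695). Without the 2 farthest mice these were 0.671, 0.58 and 0.667, and within slides 0.803, 0.775 and 0.753. In all, 36 pairs of members were computed in liver and 28 in each of the other tissues.

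**Figure D3:**
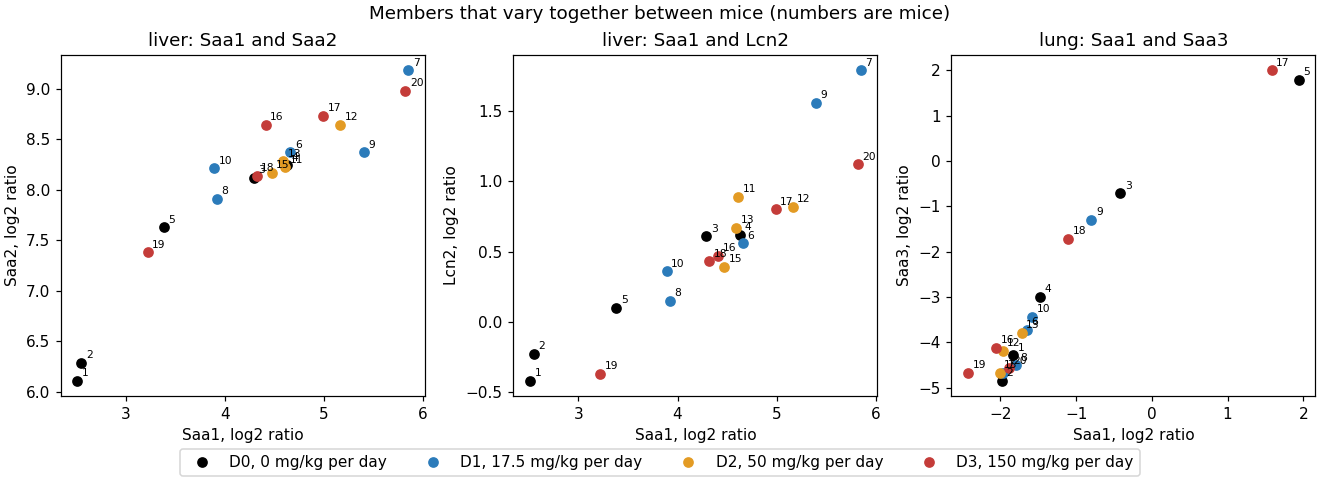
Levels (log2 ratio) of pairs of genes that varied together, 1 point per mouse, numbered and coloured by dose: Saa2 and Lcn2 against Saa1 in 19 livers, and Saa3 against Saa1 in 18 lungs. Liver mouse 1 (D0) sits lowest on each axis of both liver plots, and lung mice 5 (D0) and 17 (D3) sit highest on both axes.

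The reference channel bears on how these liver values are read. The reference RNA is the same on every array, yet its Cy3 signal at the Saa1 probe ranged 7.26-fold over the livers and rose with the Cy5 signal (r = 0.919 of the log2 signals over 19 arrays), and at Saa2 it ranged 8.25-fold (r = 0.919). Over all probes the median Cy3 range was 1.45-fold and the median r was -0.408. In Cy5 alone Saa1 spanned 82.5-fold between livers and Saa2 117-fold, against 10.1-fold and 8.42-fold in the ratio. With the Cy5 signal alone, scaled to each array's 75th percentile, the SD between mice was 1.44 for Saa1 and 1.55 for Saa2, and Saa1 and Saa2 had r = 0.999. The D3 differences were then 1.63 ± 0.79 and 1.87 ± 0.85, with a limma adjusted p of 1 for both. The ratio thus gave a narrower range for both genes than the sample's own channel did. For Hamp and Serpina3n the Cy5 signal ranged 5.78-fold and 3.75-fold over the livers, against 1.33-fold and 1.46-fold in the ratio, and Cy3 rose with Cy5 (r = 0.568 and 0.367).

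In lung Saa1 and Saa3 had larger SDs between mice than in liver, and high and low lungs occurred in D0 as well as in dosed groups. Saa3 was -4.29, -4.85, -0.71, -3.0 and 1.79 in D0 mice 1 to 5 and -3.72, -4.67, -4.51, -1.30 and -3.44 in D1 mice 6 to 10. It was -4.19, -3.79 and -4.68 at D2 (mice 12, 13 and 15) and -4.12, 2.00, -1.72, -4.68 and -4.58 at D3 (mice 16 to 20). Most lungs were near the lower end, 5 mice (3, 5, 9, 17 and 18) stood above -2, and these came from D0, D1 and D3. The range from mouse 2 to mouse 17 was 116-fold. The SD of Saa3 between mice of a dose group, 2.24, was the 13th largest of 31496 probes tested in lung, where the median was 0.159.

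Saa1 in lung picked out the same animals. It was -1.83, -1.98, -0.42, -1.48 and 1.94 at D0 and -1.65, -1.97, -1.80, -0.80 and -1.58 at D1. D2 was at -1.97, -1.72 and -2.01, and D3 at -2.06, 1.58, -1.11, -2.43 and -1.89. The 5 highest lungs for Saa1 were again mice 5, 17, 3, 9 and 18, in that order. Saa1 and Saa3 had r = 0.968 and rho = 0.975 over 18 lungs (permutation p = 1e-05 for both, adjusted p over all probes = 0.00012), and each was the other's closest of 31495 probes. The correlation was 0.952 without mice 5 and 17, 0.973 within slides and 0.947 without mice 17 and 19. Because of this spread the D3 difference had wide limits, -0.43 with an interval of -1.92 to 1.07 for Saa1 and -0.41 with an interval of -3.09 to 2.28 for Saa3. Without mice 17 and 19 it was -0.93 ± 0.63 for Saa1 (limma adjusted p = 0.655) and -1.26 ± 1.19 for Saa3 (adjusted p = 0.761).

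The genes most alike Saa1 in lung after Saa3 were Msr1, a macrophage scavenger receptor (r = 0.949), and C3ar1, a complement receptor (r = 0.926), by Pearson's r over 18 lungs with the dose means removed. Msr1 and C3ar1 were also next for Saa3, at 0.889 and 0.883. The mean of the macrophage list, of whose 6 genes 5 were on the array and all 5 were above background on most lungs, moved with Saa1 (r = 0.746), Saa3 (0.699), Lcn2 (0.66) and Serpina3n (0.767). Its mean stood 0.65 above the D0 mean in mouse 5 and 0.44 in mouse 17, against 0.20 in mouse 3, -0.13 in mouse 9 and -0.01 in mouse 18, and spanned -0.55 to 0.65 in all. It stood at 0.41 in mouse 10, whose Saa1 was -1.58 and Saa3 -3.44. The summed Cy5 signal of the list ran from 21599 to 38441 at D0, 38804.5 to 49814 at D1, 29990.5 to 35369.5 at D2 and 26456.5 to 58595.5 at D3. The glandular stomach list, with 3 of 9 genes above background on most lungs, had r = 0.682 with Saa1 and 0.572 with Saa3, and its mean was highest in mouse 5 (0.42) and mouse 17 (0.31), against at most 0.14 in the other lungs. The part of these lists in the serum amyloid values was not tested.

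Lcn2 in lung was 1.79, 1.14, 2.93, 1.93 and 3.71 at D0 and 1.83, 1.25, 1.34, 2.75 and 2.37 at D1. It was 1.67, 1.44 and 1.46 at D2 and 1.51, 1.63, 1.27, 1.26 and 1.81 at D3. The highest lungs were mice 5, 3 and 9, all of D0 or D1, and no lung of D2 or D3 was above 1.81. The D3 difference was -0.80 ± 0.38 (limma adjusted p = 0.304, interval -1.60 to -0.01), and the trend over the dose steps was -0.82 (adjusted p = 0.236). The D0 mean of 2.3 was raised by mouse 5, and the medians were 1.93 at D0 and 1.51 at D3. Without mice 17 and 19 the D3 difference was -0.77 ± 0.45. Mouse 17, with the highest Saa3, had Lcn2 at 1.63, and Saa3 and Lcn2 had r = 0.702 and rho = 0.672 over all lungs (permutation p = 0.00188 and 0.00838, adjusted p over all probes = 0.47). Without mice 17 and 19 r was 0.845 (adjusted p = 0.129), and without mice 5 and 17 it was 0.704. The gene most alike Lcn2 in lung was Noxo1, an organiser subunit of an NADPH oxidase (r = 0.985). The Cy3 signal of Lcn2 ranged 3.89-fold in lung and moved with Cy5 (r = 0.958), against a median range of 1.39-fold.

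In forestomach the serum amyloids and Lcn2 were low, and the means of Saa1, Saa3 and Lcn2 were lowest on slide 3. Saa1 averaged -0.91, -0.66 and -1.5 and Lcn2 -0.79, -0.6 and -1.41 on slides 1, 2 and 3. The values of both overlapped between slides, and the highest Saa1 (0.47) was on slide 3. Saa3 averaged -2.92 on slide 1, -2.34 on slide 2 and -4.54 on slide 3, and only 12 of 19 arrays held it above background. Saa3 and Itih4 had r = -0.796 and rho = -0.714 over all 19 forestomachs (permutation p = 2e-04 and 3e-04, adjusted p over all probes = 0.0011), and r = 0.0192 within slides. Saa3 and Saa1 had r = 0.788 and rho = 0.768 (permutation p = 0.00072 and 0.00104, adjusted p over all probes = 0.0347), with r = 0.73 within slides and 0.699 without mice 12 and 19. The keratinocyte list had r = -0.901 with Saa3 and 0.788 with Itih4, and its summed Cy5 signal ran from 29198.5 to 603233.5 at D0, 50092.5 to 577326.5 at D1, 46375 to 430817 at D2 and 56017.5 to 585025.5 at D3. The list correlations removed the dose means and not the slide means, and the unscaled Cy5 sums mix dim and bright slides. The part of the keratinocyte genes in these values was not tested. A single forestomach, that of D3 mouse 20, had Saa2 at 3.74, with Saa1 also at its highest there (0.47). The other 4 D3 forestomachs had Saa2 between -0.26 and 0.53, all not well above background.

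The orosomucoid ratios spanned less in liver than in the other tissues. In lung Orm1 was well above background on 6 of 18 arrays and Orm2 on 8. Orm1 stood at 0.75, 0.78 and 1.00 in mice 13 (D2), 17 (D3) and 19 (D3), and between -0.13 and 0.28 in the other 15 lungs. Orm2 was highest in the same lungs, at 1.11, 1.01 and 1.14. The D3 difference of Orm1 was 0.42 ± 0.15 (limma adjusted p = 0.2), and the trend was 0.47 ± 0.14 (adjusted p = 0.117). Without mice 17 and 19 the trend was 0.23 ± 0.12 and the D3 difference was 0.16 ± 0.12 for Orm1 and -0.08 ± 0.16 for Orm2. Orm1 and Orm2 had r = 0.828 and rho = 0.752 in lung (permutation p = 0.00618 and 0.0113, adjusted p over all probes = 0.0178). The correlation was 0.705 without mice 13 and 19, the farthest on Orm1, and became 0.777 with an adjusted p of 0.177 without mouse 19, and 0.669 with an adjusted p of 0.925 without mice 17 and 19.

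The adipocyte genes moved with the orosomucoids in lung. Of the 7 genes of this list, 6 were above background on most lung arrays and Lep was at background on all, and their mean stood 2.36, 2.59 and 2.56 above the D0 mean in mice 13, 17 and 19, against -1.0 to 1.25 in the others. The summed Cy5 signal of the list ran from 1552.8 to 9373.95 at D0, 2147.5 to 4270 at D1, 1542.55 to 32477.3 at D2 and 2748 to 47716.2 at D3. The correlation over 18 lungs was 0.804 for Orm1, 0.81 for Orm2 and 0.732 for Hamp. The skeletal muscle list had r = 0.812 with Orm1 and 0.706 with Orm2, and the keratinocyte list 0.798 and 0.669. The summed Cy5 signal of the 8 muscle genes, of which 5 were above background on most lungs, ran from 714 to 835 at D0, 762.5 to 1006 at D1, 724 to 70856.5 at D2 and 784 to 257518.5 at D3. The adipocyte list had r = 0.294 with Saa1 and 0.275 with Saa3. The fibroblast list had r = 0.705 with Orm1 and 0.574 with Orm2. The part of the adipocyte, muscle, keratinocyte and fibroblast genes in the orosomucoid values was not tested.

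In forestomach both orosomucoids were highest in D0 mice 2 and 5, on slide 3. Orm1 on this slide was 2.11 and 2.45 in these mice, 1.01 and 0.57 in D1 mice 6 and 10, 0.17 in D2 mouse 12 and 0.63 and 0.82 in D3 mice 19 and 20. Orm2 was 2.33 and 2.93 in the D0 mice and between 0.65 and 1.00 in the other 5. On the dim slides no forestomach had Orm1 above 0.95. Over all 19 forestomachs Orm1 and Orm2 had r = 0.954 and rho = 0.868 (permutation p = 8e-05 and 0.00037, adjusted p over all probes = 0.000274) and each was the other's closest probe. The correlation was 0.893 without mice 2 and 5, 0.926 within slides and 0.546 on slide 3 alone. Over all slides the differences at D3 were -0.51 ± 0.36 for Orm1 and -0.22 ± 0.44 for Orm2. Within slide 3 they were -1.55 ± 0.24 and -1.64 ± 0.24, from 2 mice against 2, with a limma adjusted p of 0.886 and 0.826. The adipocyte genes stood 2.40 and 2.21 above the D0 mean in D0 mice 2 and 5 and at -1.11 and -1.52 in D3 mice 19 and 20 of the same slide, and r over 19 forestomachs was 0.743 with Orm1 and 0.776 with Orm2. Of the 7 adipocyte genes 5 were above background on most forestomachs, and their summed Cy5 signal ran from 943.15 to 46234.8 at D0, 1670.6 to 17754.2 at D1, 1340 to 15538.5 at D2 and 3357.95 to 12921.45 at D3. The macrophage list, with 4 of 5 genes above background on most forestomachs, had r = 0.797 with Orm1, and its summed signal ran from 423.5 to 5449 at D0, 634 to 4783 at D1, 707.5 to 3743.5 at D2 and 706 to 5384.5 at D3. Slide means were not removed from these list correlations, and the sums mix dim and bright slides. The part of both lists in the orosomucoid values was not tested.

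**Figure D4:**
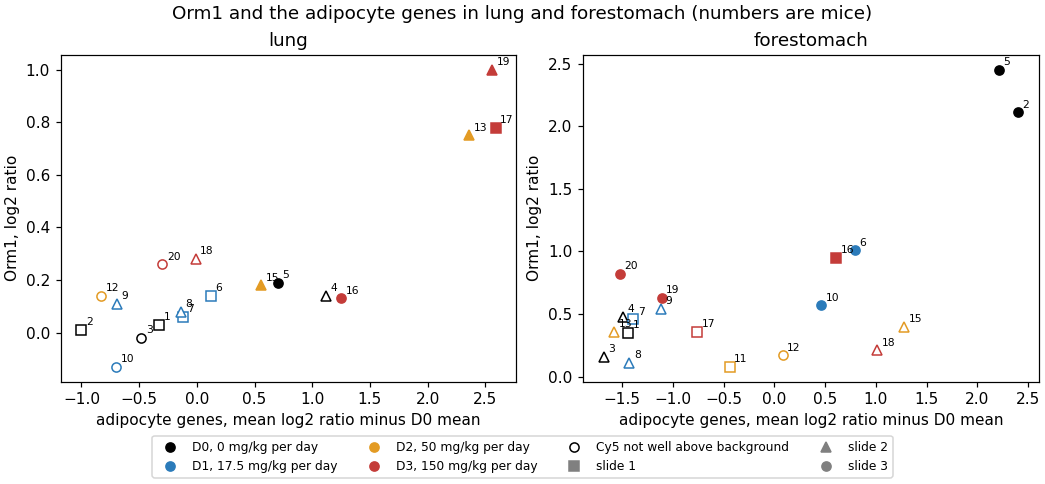
Orm1 level (log2 ratio) against the mean log2 ratio of the adipocyte genes minus its D0 mean, 1 point per mouse, in 18 lungs and 19 forestomachs. Colours are doses, shapes are slides and open points are not well above background; lung mice 13, 17 and 19 and forestomach mice 2 and 5 sit highest on both axes.

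Hamp in lung lay between -0.21 and 2.61 and was above background on 11 of 18 arrays. It was -0.20, -0.21, 1.29, 1.35 and 1.51 at D0 and -0.05, 0.57, -0.05, 1.39 and 0.75 at D1, with 0.08, 2.25 and 1.44 at D2. At D3 it was 1.91, 2.61, 0.35, 1.62 and 0.38. Each dose group held both low and high lungs, and its SD of 0.879 was the 311th largest in lung. The club cell list, with 4 of 5 genes on the array and all 4 above background on most lungs, had r = 0.76 with Hamp, and its summed Cy5 signal ran from 539576.9 to 774951.2 at D0, 587949.4 to 800728.5 at D1, 534502.7 to 728763.1 at D2 and 602337.9 to 882218.6 at D3. The glandular stomach list had r = 0.719, with 3 of 9 genes above background on most lungs, Gkn1, Gkn2 and Pgc at background and a summed signal of 870.6 to 2571.85 at D0, 900.05 to 1304.35 at D1, 1018.6 to 1795.25 at D2 and 984.3 to 2603.4 at D3. Their part in the Hamp values was not tested. The D3 difference was 0.63 ± 0.50 (interval -0.42 to 1.69) and 0.14 ± 0.54 without mice 17 and 19. The genes most alike Hamp in lung were Ckmt2, Myoz2 and Tnnt2 (r = 0.972, 0.967 and 0.966), a mitochondrial creatine kinase and sarcomere proteins of striated muscle. The skeletal muscle list had r = 0.491 with Hamp there, and no list of heart muscle genes was read. The part of muscle genes in the Hamp values was not tested. In liver the genes closest to Hamp were Agxt, Hbb-b2 and Serpina3n (r = 0.846, 0.837 and 0.818). The pair Hamp and Serpina3n did not pass over all probes (rho = 0.832, permutation p = 0.00023 for r and 0.00014 for rho, adjusted p = 0.394). Its r was 0.78 without mice 7 and 19 and 0.0839 with the Cy5 signal alone.

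Itih4 averaged 5.80 ± 0.53 over 18 lungs, all above background. Its lung values were 5.64, 5.25, 6.24, 5.97 and 7.01 at D0, 6.35, 5.61, 5.55, 6.04 and 5.86 at D1, 6.02, 5.84 and 5.67 at D2 and 5.64, 6.09, 4.76, 4.78 and 6.06 at D3. The lowest lungs were D3 mice 18 and 19, and the other 3 D3 lungs lay within the D0 range. The difference at D3 was -0.56 ± 0.31 (limma adjusted p = 0.38), and -0.54 ± 0.33 without mice 17 and 19. In forestomach Itih4 was -0.13, 1.26, -0.06, -0.15 and 1.12 at D0 and 0.59, 0.48, 0.37, 2.20 and 2.81 at D3, a difference of 0.88 ± 0.47 (limma adjusted p = 0.608). The trend there was 0.91 ± 0.43 (limma adjusted p = 0.533), and the slide means were 0.43, 0.37 and 1.65. The hepatocyte list had 5 of 8 genes above background on most forestomachs, with Cps1 at background. Over 19 forestomachs this list had r = 0.818 with Itih4, with the dose means removed but not the slide means. It stood 1.59 and 1.22 above the D0 mean in D3 mice 19 and 20, which had the highest Itih4, and at 1.69 in D0 mouse 2. Its summed Cy5 signal ran from 518.4 to 15676 at D0, 540.15 to 3564.2 at D1, 811.05 to 14331.45 at D2 and 748.65 to 8718 at D3, and its part in the Itih4 values was not tested. Its second, dimmer probe gave 5.14, 2.37 and 0.06 in liver, lung and forestomach, and was above background on 1 of 19 forestomachs.

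Serpina3n averaged 2.05 ± 0.31 in lung, from 1.59 to 2.61, and 0.38 ± 0.40 in forestomach, where 7 of 19 arrays were above background. At D3 it differed from D0 by 0.07 ± 0.18 in lung, or -0.08 ± 0.19 without mice 17 and 19, and -0.19 ± 0.26 in forestomach. Its closest genes in lung were Rassf4, Fcgr3 and Gusb (r = 0.893, 0.877 and 0.86). The hepatocyte list, with 4 of 8 genes above background on most lungs, had r = 0.69 with Serpina3n there. The part of this list in the Serpina3n values was not tested.

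Whether the effect of the highest dose differed between tissues was tested as an interaction. No member passed, where 0% of all probes were called for liver minus lung, 0.0772% for liver minus forestomach and 0.703% for lung minus forestomach. At an unadjusted p of at most 0.05 by limma, 1, 0 and 2 members stood against 5.25, 9.89 and 12.9% of all probes, with Saa2, which passed the filter only through liver, left out. Itih4 had the smallest p, with lung minus forestomach at -1.44 ± 0.49 (limma adjusted p = 0.135), and with the slide as a block it was called (-1.42 ± 0.32, adjusted p = 0.0144), where 1.58% of all probes were. For Orm1 lung minus forestomach was 0.94 ± 0.34 (limma adjusted p = 0.189). Without lung mice 17 and 19 these were -1.42 ± 0.52 (adjusted p = 0.314) and 0.67 ± 0.36 (adjusted p = 0.616). With the forestomach arrays of slide 3 alone, 2 members were called for liver minus forestomach (Orm1 1.52, adjusted p = 0.000868, and Orm2 1.59, adjusted p = 0.00154), where 2.03% of all probes were called. Under that restriction 3 were called for lung minus forestomach (Orm1 1.97, adjusted p = 1.29e-05, Orm2 1.83, adjusted p = 0.000183, and Itih4 -1.88, adjusted p = 0.0171), where 3.05% of all probes were. In this setting D3 and D0 rested on 2 forestomachs each. The fit uses a spread per probe common to all tissues, so these p-values lean on the liver and lung arrays. Within forestomach slide 3 the D3 difference had a limma adjusted p of 0.886 for Orm1 and 0.826 for Orm2.

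Whether mice that were high in one tissue were also high in another was asked over 24 relations of a member between tissues of the same mice, with dose means removed. None passed over all probes, where 1.07% of all probes did for liver with lung, 0.138% for liver with forestomach and 0.118% for lung with forestomach. By Pearson's r the strongest was Saa1 between liver and forestomach (r = 0.53 and rho = 0.474 over 19 mice, permutation p = 0.0313 and 0.0633, adjusted p over all probes = 0.643), with r = 0.38 without mice 4 and 20. By Spearman's rho it was Serpina3n between lung and forestomach (r = 0.425 and rho = 0.61 over 18 mice, permutation p = 0.135 and 0.0292, adjusted p over all probes = 0.762), with r = 0.221 within slides and 0.424 without mice 12 and 17. Saa1 between liver and lung had r = 0.24 and rho = 0.35 over 18 mice (permutation p = 0.431 and 0.227, adjusted p over all probes = 0.887). Mouse 5, with the highest Saa1 in lung, had the third lowest D0 Saa1 in liver, and mouse 7, highest in liver for Saa1, Saa2 and Lcn2, had lung Saa1 at -1.97. The median r over all probes was 0.0895, 0.05 and 0.0117 for liver with lung, liver with forestomach and lung with forestomach.

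The wider pathway was read from a list of 75 cytokines, receptors, signalling genes, other acute phase proteins and iron regulators, of which 73 were on the array and 64, 58 and 57 were tested in liver, lung and forestomach. None was called at any dose or for the trend in any tissue, and the genes named here were chosen after their values were seen. At D3, with a limma p no greater than 0.05 before adjustment, 0 stood in liver, 6 above and 7 below D0 in lung, and 5 above and 1 below in forestomach, beside the shares of all probes given above. Of the 7 cytokines and inducers only 2 were bright enough to be tested in liver, 4 in lung and 1 in forestomach. Il1b, which encodes interleukin 1 beta, differed at D3 by 0.05 ± 0.09 in liver and -0.25 ± 0.34 in lung. In lung Nfkbia, the NF-kB inhibitor that NF-kB itself induces, was at -0.53 ± 0.15 (limma adjusted p = 0.138), and Cebpd, a C/EBP factor, at -0.59 ± 0.19 (limma adjusted p = 0.174). Without mice 17 and 19 these were -0.40 ± 0.17 and -0.42 ± 0.22. Among other acute phase proteins in lung, haptoglobin (Hp) was at -0.43 ± 0.18 and Serpina1a, an antitrypsin, at 2.12 ± 0.61 (limma adjusted p = 0.134), and without mice 17 and 19 at -0.38 ± 0.20 and 1.69 ± 0.67. Without these mice 6 lung genes of the list stood above and 3 below D0 at that limit, where 9.87% of all probes did, and 0 were called. Those with the smallest p were the kinase Tyk2 at 0.42 ± 0.11 (limma adjusted p = 0.22), the glucocorticoid receptor Nr3c1 at 0.29 ± 0.10 and the kinase Jak1 at 0.23 ± 0.08 (adjusted p = 0.38 for both), against 0.33 ± 0.10, 0.08 ± 0.12 and 0.16 ± 0.07 with all lungs. In liver Stat3, the transcription factor downstream of interleukin 6, differed by -0.12 ± 0.07, its feedback inhibitor Socs3 by 0.15 ± 0.17, and haptoglobin by 0.05 ± 0.09. Of the 21 positive acute phase proteins tested in liver, 0 stood at an unadjusted p of at most 0.05 at D3, with a median difference of 0.02. In forestomach Il6st, the shared receptor chain of interleukin 6, was at 0.49 ± 0.18 (limma adjusted p = 0.341) and complement C3 at 0.94 ± 0.38 (limma adjusted p = 0.416).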

How the data were processed

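The arrays were Agilent 8x60K 2-colour slides with the sample in Cy5 and the reference in Cy3 and no dye swap, so that a probe's dye bias cancels only between arrays. The authors deposited a table of log2 ratios of Cy5 over Cy3, which their methods describe as LOWESS-normalized array by array, with no background taken off the median signals. Loess run here on the scanner signals gave the same scale and sign, with r between 0.977 and 0.998 over the 56 arrays. The deposited scanner files hold the median intensity of each spot from Feature Extraction 10.7.3.1, per the submitters' processing notes. Other columns in the deposited files are flags of 0 or 1, one each for a spot that is bright enough, saturated or uneven.

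Of 55681 probes, 26413 (47.4%) were named through RefSeq transcripts of the GRCm38.p6 table. Probes with Cy5 well above background on at least 3 arrays of a tissue were tested with limma 3.58.1 in R 4.3.3 (lmFit, eBayes, two-sided), with Benjamini-Hochberg adjustment over all of them, and called at an adjusted p of at most 0.05 and a fold of at least 1.5. Comparisons between tissues were fitted on all arrays, with a spread per probe common to the tissues. The study's methods name these limits with MAANOVA, whose Fs statistic was an alternative. Correlations used deviations from dose-group means, and their adjusted p came from r over all probes with the degrees of freedom of the dose means removed. Within-slide values also removed the slide means. Scripts were tested on simulated data. The members, lists and tests were chosen with earlier results of these data known. The genes to be named were set as all 9 members, the 3 genes most alike each and the called genes of the pathway list, of which there were none. Not all of the most alike genes are printed. The pathway genes in the text fall outside this rule and were picked after their values were seen. Marker genes at background are also named outside it. Replicates are separate mice, and tissues with the same mouse number in the sample titles were taken as the same mouse. The r between the deviations of a mouse's tissues was taken across probes. Its median over mice was 0.123 for liver with lung, 0.0635 for liver with forestomach and 0.0166 for lung with forestomach. Tissues with unlike mouse numbers were not compared, so these values do not test the pairing. The number of mice limits the precision. Alternatives were other normalizations and filters, slide and array column as terms, a mouse block, array weights, the dose in mg per kg and leaving out each mouse. Leaving out lung mice 17 and 19, keeping forestomach slide 3 alone and reading Cy5 alone were added after seeing the data.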

Additional observations from a re-analysis of the deposited data

Results flagged for a closer look

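In 4 of 99 groups of 4 or 5 mice, 1 mouse stood far from the nearest of the others relative to the range of its group, and chance alone gives about 1 such group in 20. Saa2 in the D3 forestomachs was 3.74 in mouse 20 against 0.53 in the next highest. Saa2 in the D2 forestomachs was 0.76 in mouse 13 against -0.02. Itih4 in the D1 forestomachs was 1.88 in mouse 10 against 0.67. Serpina3n in the D3 lungs was 2.57 in mouse 17 against 1.97, on one of the lung arrays that also carried skeletal muscle and keratinocyte genes.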

How the results depend on the processing

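No member was called for any dose, or for the trend, under any alternative that was run, and the level differences between tissues kept their calls in every setting except those of Saa3, Hamp, Orm1, Orm2 and Saa1. With mouse as a replicate block, which pairs the tissues of a mouse, the members called for the level, Saa2 included, were 8 for liver minus lung, 9 for liver minus forestomach and 4 for lung minus forestomach, with 0 for each D3 effect, and no call changed. Saa2 passed the filter only through liver, so its calls say nothing. All probes called for the level under this block came to 46.7, 41.5 and 36.5%, and probes called for the D3 effect were 0 for liver minus forestomach, 2 for liver minus lung and 202 for lung minus forestomach. The D3 effect of lung minus forestomach had 1 member called with the slide as a block, where 1.58% of all probes were, and with forestomach slide 3 alone 3 were called, and 2 for liver minus forestomach. The cause was not tested. The differences listed below turned their direction, and none of them had been called in the deposited ratios with all arrays. Saa2 was well above background on 2 of 19 forestomachs, so its values below rest on signals at the floor.

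Under median centring the median of all probes shifted by up to 1.06 (lung minus forestomach level) and -0.74 (liver minus lung level), and the values became -0.01 for Itih4 in liver at D3, 0.06 for Lcn2 and 0.27 for Saa3 in forestomach at D3, -0.35 for the Saa3 D3 effect of liver minus forestomach, 1.64 for the Saa1 level of lung minus forestomach and -0.54 for the Saa3 level of liver minus lung. With normexp, Orm1, Orm2 and Serpina3n in liver at D3 became 0.18, 0.07 and 0.07. With array column as a term, D3 became 0.06 for Lcn2 and 0.74 for Saa3 in forestomach, 0.20 for Orm1, 0.15 for Orm2 and 0.14 for Saa3 in liver and -1.03 for Serpina3n in lung, and the Saa3 D3 effect of lung minus forestomach 0.01. With array weights Orm2 in forestomach was 0.12 and Serpina3n in liver 0.03. Without lung mice 17 and 19 the D3 effects were 0.01 (Hamp), 0.02 (Orm2) and 0.06 (Serpina3n) for liver minus lung and -0.18 (Hamp) for lung minus forestomach, lung at D3 was -0.08 for both Orm2 and Serpina3n, and the Saa3 level of lung minus forestomach was -0.05. With forestomach slide 3 alone the D3 effects were -0.23 (Hamp) for lung minus forestomach and -0.13 (Saa1), -1.13 (Saa2) and -0.38 (Saa3) for liver minus forestomach, Saa3 in forestomach at D3 was 0.33 and the Saa1 level of lung minus forestomach 0.22. In Cy5 alone Orm1 and Orm2 in liver were 0.09 and 0.01 and Saa3 in forestomach 0.06.

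Leaving out 1 mouse turned some values. In liver at D3 they ranged from -0.09 to 0.05 (Orm1), -0.13 to 0.02 (Orm2), -0.12 to 0.07 (Saa3) and -0.10 to 0.04 (Serpina3n), in lung from -1.12 to 0.25 (Saa1), -1.56 to 0.59 (Saa3) and -0.07 to 0.16 (Serpina3n), and in forestomach from -0.54 to 0.24 (Orm2) and -0.74 to 0.05 (Saa3). The D3 effects ranged from -0.04 to 0.87 (Saa2), -0.32 to 0.52 (Orm2), -0.03 to 0.46 (Serpina3n) and -0.34 to 0.10 (Hamp) for liver minus forestomach, -0.70 to 1.47 (Saa3) and -0.20 to 0.04 (Serpina3n) for liver minus lung and -0.09 to 0.70 (Hamp), -0.63 to 0.10 (Lcn2) and -1.18 to 1.33 (Saa3) for lung minus forestomach. The Saa3 level of lung minus forestomach ranged from -0.19 to 0.34. Saa3 was called higher in liver than in lung without mouse 5, 9 or 17 (1.15, 1.04 and 1.17), lost its call over forestomach without mouse 6, 10 or 12 (1.01, 0.97 and 0.90) and with no filter on dim probes (1.05). Hamp fell under the fold limit for lung minus forestomach without mouse 4, 5, 9, 11, 13, 15, 16 or 17 (0.48 to 0.58). The correlation of Saa1 with Lcn2 in liver was 0.879 (adjusted p = 0.0922) with loess on the scanner signals and 0.882 (0.0771) with normexp, and that of Hamp with Serpina3n was 0.969 (6.4e-09) with median centring.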

Other observations

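Some genes most alike the members, by r over arrays with the dose means removed, are not given above. In liver Orm2 was closest to Daglb, Mapk12 and Cps1 (r = 0.901, 0.891 and 0.881 over 19 arrays), Itih4 to Sult1a1, Serping1 and Masp2 (0.825, 0.811 and 0.80) and Orm1 to Cyp4f15 (0.784). In lung Orm1 was closest to Gpd1 (0.925 over 18 arrays), Orm2 to Cox5a (0.912) and Itih4 to Slc41a3 (0.855). In forestomach Saa3 was closest to Trem2, Lox and Map4k1 (0.989, 0.987 and 0.985 over 19 arrays), and these were 0.905, 0.887 and 0.835 within slides. All arrays of a tissue share slides and the reference RNA.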
